A study of Homo sapiens with 9 samples.

Results

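The genes described here are the 84 of 6499 listed genes whose symbols belong to families of adhesion receptors, their cytoplasmic partners and guidance ligands, matched by a pattern of symbols. They comprise 9 integrin alpha and 3 beta subunits, 8 cytoplasmic focal adhesion proteins, 4 cadherins, 9 protocadherins, 9 adhesion molecules of the immunoglobulin family, 3 glypicans, 8 desmosome, claudin and connexin genes, 8 semaphorins, 8 plexins and neuropilins, 4 EPH receptors, 5 ephrins and 4 SLIT and ROBO genes. A further 2 carry an integrin name without encoding a subunit, and PCDHGB8P is a pseudogene. The focal adhesion proteins lie inside the cell and the semaphorins, ephrins and SLIT proteins are ligands, so not every member is an adhesion receptor.

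Cells hold on to their surroundings through surface proteins. Integrins are pairs of an alpha and a beta subunit that bind matrix proteins outside the cell and, through talin, kindlin and vinculin, the actin cytoskeleton inside it. Cadherins, nectins and junctional adhesion molecules join neighbouring cells, connexins form channels between them, and semaphorins, ephrins and SLIT proteins are guidance ligands read by plexin, neuropilin, EPH and ROBO receptors. Fibroblasts depend on matrix adhesion for their spread shape, and a flat, enlarged shape is a known trait of senescent fibroblasts.

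RNA was sequenced from WI-38 cells at population doubling 30. WI-38 is a widely used diploid fibroblast line from human lung. The control group received DMSO in place of doxorubicin and the model group received 1 μM doxorubicin, an anthracycline drug that breaks DNA by way of topoisomerase II, for 12 h, and both were then kept for 48 h in medium with DMSO. The remaining group received oridonin, a plant diterpenoid, in those 48 h after doxorubicin, and was not analysed here. Each group has 3 libraries. The labels do not say whether these came from separate cultures, and the study's methods speak of independent experiments for its results in general without naming the sequenced libraries. The p-values therefore measure only the spread between these libraries, which may be technical.

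The deposited table lists only genes that passed the authors' thresholds of fold change and p-value on these same 6 libraries. Every member was therefore already chosen for a difference between the groups, and no count of changed members is independent evidence of a change. Values were read as TPM, the share of a library's transcripts that a gene contributes after correction for transcript length. TPM keeps no read depth, so precision was judged from the replicates only. Because the samples are bulk RNA, fewer cells of a type and less RNA per cell cannot be told apart.

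The fit was made with limma on log2(TPM + 1) over 5721 of the listed genes, those that averaged 1 TPM or more, and a gene was called at an adjusted p (Benjamini-Hochberg) under 0.05. On this scale the change of low genes is understated. With 3 libraries in each group, an exact permutation test on 1 gene has 0.1 as its smallest two-sided p. Over these 5721 genes the log2 fold change had a median of -0.28, so each call was also examined after quantile normalization (median -0.01) and after centring each library on its own median (median -0.02). Over the listed genes that averaged 5 TPM or more, the median on the TPM values was 0.05. Centring therefore moves the more abundant genes by a shift that they do not share, and a call gained or lost by centring alone is uncertain for them. A direction that was called on the TPM values and under both of these is described as held on all 3 scales. Centring raised every log2 fold change by the same amount, for instance that of ITGA3 from 0.32 to 0.58 and that of ITGB1 from -0.86 to -0.60. It could thus weaken a fall but not a rise, so for members called higher it was no check.

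Of the 84 members, 71 passed the filter. In the model group 46 of them were lower and 11 were higher, or 64.8% and 15.5%, against 48.7% lower and 28.2% higher among all genes tested, and 80.3% against 76.9% in either direction. After quantile normalization 30 members were lower and 16 higher, against a background of 30.4% and 37.8% (68.2% in either direction). After centring 30 were lower and 23 higher, against 33.9% and 45.6% (79.5% in either direction). Their median log2 fold change was -0.46 against -0.28 for all genes tested, and -0.19 against -0.01 after quantile normalization. Among genes averaging 5 TPM or more it was -0.48 in the members against 0.05 in all. The direction was held on all 3 scales by 26 of the 46 lower members and by all 11 higher members, for which centring was no check. Among all genes tested, 28.2% were lower and 25.8% higher on all 3 scales, against 36.6% and 15.5% of the members. The 3 libraries of one group all lay beyond the 3 of the other in 56 members, against 80.7% of all genes tested. Of these members 44 were lower and 12 higher, against 48.4% and 32.3% of all genes tested. As these genes were listed for differing, the shares describe the list and say nothing further about it.

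**Figure D1:**
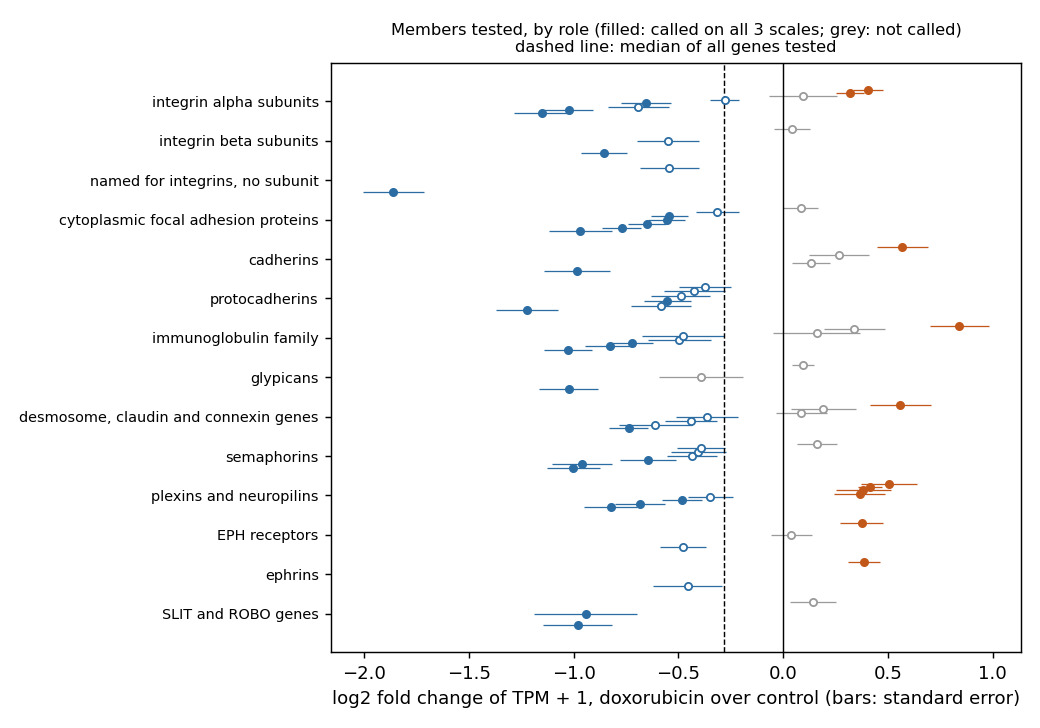
The log2 fold change of TPM + 1 (model group over control group) is plotted for the 71 members tested, in rows by role, with standard errors as bars. Filled points held their direction on all 3 scales, grey points were not called, and the dashed line marks the median of all genes tested (-0.28). The focal adhesion row lies left of 0 but for 1 grey point. The plexin and neuropilin row holds 4 higher and 4 lower genes, beside 28.2% higher and 48.7% lower among all genes tested.

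The most abundant member was ITGB1 (ENSG00000150093, GENCODE position on GRCh38 chr10:32900319-33005792, minus strand), the beta subunit that pairs with most matrix-binding alpha subunits. It was measured at 1050.1, 1216 and 1034 TPM in the control group and 624, 510.0 and 699 TPM in the model group. All 3 model libraries lay below all 3 control libraries, and ITGB1 fell (log2 fold change -0.86, standard error 0.11, adjusted p = 0.000163 in limma), on all 3 scales. ITGB1 alone held 29.65 to 32.45% of the summed TPM of the 84 members in the control group and 20.49 to 23.41% in the model group. The summed TPM of all members was 3420 to 3749 in control libraries and 2489 to 2984 in model libraries, and without ITGB1 it was 2386 to 2532 and 1979 to 2286.

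The other beta subunits pair with the alpha-V subunit. ITGB5 was measured at 81.96, 82.2 and 84.4 TPM in the control group and 83.3, 76.7 and 97.5 TPM in the model group, with overlapping groups and no call (log2 fold change 0.04, standard error 0.09, adjusted p = 0.634 in limma), and its sign turned after quantile normalization, while centring gave a call of higher (adjusted p = 0.00557). ITGB3 stood lower, at 6.68, 6.92 and 6.68 TPM in the control group and 4.63, 3.26 and 5.20 TPM in the model group (log2 fold change -0.55, standard error 0.15, adjusted p = 0.00697 in limma), a call that was lost after quantile normalization (adjusted p = 0.181 in limma). Within each library ITGB1 made up 92.4% ± 0.659 of the TPM of the 3 listed beta subunits in the control group and 87.1% ± 0.607 in the model group (SD, n = 3 each), while the share of ITGB5 was 6.998% ± 0.624 and 12.3% ± 0.660 (SD, n = 3 each). Such a share inside a library does not depend on how libraries are scaled, and for both genes the groups did not overlap.

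Among alpha subunits the order in control cells was ITGA5, ITGA3, ITGA7, ITGA6, ITGA1, ITGAV, ITGA4, ITGA11 and ITGA8, and the control libraries overlapped between the neighbours ITGA6 and ITGA1 and between ITGA4 and ITGA11. ITGA5, the fibronectin receptor subunit, was measured at 371, 336 and 332 TPM in the control group and 261, 300.3 and 296 TPM in the model group. It was lower in every model library (log2 fold change -0.28, standard error 0.07, adjusted p = 0.00465 in limma). The call held after quantile normalization (log2 fold change -0.36, adjusted p = 0.00155 in limma) and was lost after centring (adjusted p = 0.844 in limma). Its change was close to the -0.28 of the whole list, but genes averaging 5 TPM or more had a median of 0.05. The collagen receptor subunit ITGA1 fell further, from 20.1, 21.7 and 19.96 TPM to 9.68, 8.33 and 11.01 TPM (log2 fold change -1.02, standard error 0.12, adjusted p = 4.63e-05 in limma), on all 3 scales. ITGA4, whose product binds fibronectin and VCAM1, fell from 7.80, 9.70 and 7.79 TPM to 3.01, 2.95 and 3.78 TPM (log2 fold change -1.15, standard error 0.14, adjusted p = 5.9e-05 in limma), on all 3 scales, the lowest log2 fold change of any integrin subunit tested. ITGAV, which takes part in vitronectin and fibronectin receptors, fell from 16.01, 17.97 and 15.3 TPM to 10.5, 8.70 and 11.1 TPM (log2 fold change -0.66), on all 3 scales. The second collagen receptor subunit, ITGA11, had a log2 fold change of -0.69, which was not called after quantile normalization (adjusted p = 0.0608 in limma).

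None of the 3 listed alpha subunits of laminin receptors was called lower. ITGA3 was measured at 102, 106 and 96.5 TPM in the control group and 123, 124 and 134 TPM in the model group. Every model library lay above every control library, and ITGA3 rose (log2 fold change 0.32, standard error 0.07, adjusted p = 0.00154 in limma), on all 3 scales. ITGA7 rose from 31.8, 31.9 and 32.6 TPM to 43.7, 41.9 and 43.05 TPM (log2 fold change 0.41, standard error 0.07, adjusted p = 0.000716 in limma), likewise on all 3 scales. ITGA6, the remaining laminin-binding subunit listed, overlapped between the groups at 19.3, 28.2 and 17.3 TPM in the control group and 23.2, 20.1 and 24.8 TPM in the model group. Its log2 fold change was 0.10 (adjusted p = 0.587 in limma), the sign turned without control replicate 3, at -0.04, and it was called higher after centring (adjusted p = 0.0466). The grouping by ligand was made after the values were seen and carries no test. Inside each library, the laminin-binding subunits ITGA3, ITGA6 and ITGA7 made up 26.57 to 29.77% of the TPM of the 9 listed alpha subunits in the control group and 36.53 to 39.70% in the model group. The collagen-binding ITGA1 and ITGA11 made up 4.94 to 5.12% and then 2.30 to 2.94%, and ITGA4, ITGA5, ITGA8 and ITGAV together 65.25 to 68.48% and then 57.38 to 61.17%. The groups did not overlap in any of the 3 shares. The ratio of ITGB1 to the summed alpha subunits was 1.98 ± 0.180 in the control group and 1.21 ± 0.182 in the model group (SD, n = 3 each).

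**Figure D2:**
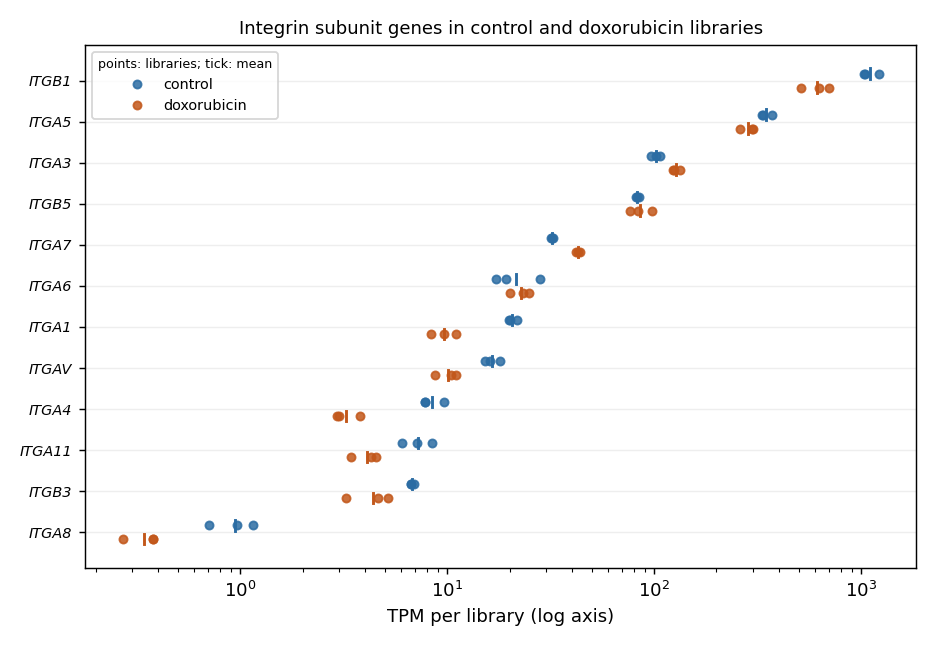
TPM per library (log axis) of the 12 listed integrin subunit genes, ordered by their control mean. Points are libraries of the control and the model (doxorubicin) group and ticks are group means. ITGB1, ITGA5, ITGA1, ITGAV, ITGA4, ITGA11, ITGB3 and ITGA8 lie to the left after doxorubicin, ITGA3 and ITGA7 to the right, and ITGB5 and ITGA6 overlap.

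Members with an integrin name but no subunit included the largest fall among the members tested. ITGB3BP encodes a centromere protein and, despite its symbol, no integrin subunit. It fell from 8.10, 7.58 and 9.75 TPM to 1.90, 1.71 and 1.23 TPM (log2 fold change -1.86, standard error 0.14, adjusted p = 3.44e-06 in limma), on all 3 scales. ITGBL1, a secreted protein with repeats like those of beta integrins, had values of 21.1, 21.9 and 21.8 TPM in the control group and 17.2, 11.2 and 15.8 TPM in the model group (log2 fold change -0.54), and its call was lost after centring (adjusted p = 0.0639 in limma).

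Inside the cell, focal adhesions couple integrins to actin. Of the 7 such genes tested, 6 were lower and none higher, and 5 were lower on all 3 scales, beside 48.7% and 28.2% of all genes tested. The most abundant was TLN1, which encodes talin, the protein that binds the tails of beta subunits, at 197, 198 and 168 TPM in the control group and 156, 129 and 169 TPM in the model group. Model replicate 3 overlapped control replicate 3, and the call of TLN1 was weak (log2 fold change -0.31, standard error 0.10, adjusted p = 0.0181 in limma). It was lost after centring (adjusted p = 0.567) and without control replicate 1 or 2 (adjusted p = 0.0594 and 0.0605 in limma), and without model replicate 2 the log2 fold change was -0.20. Its paralog TLN2, at far lower levels, fell from 7.11, 5.42 and 6.56 TPM to 2.95, 2.13 and 3.25 TPM (log2 fold change -0.97, standard error 0.15, adjusted p = 0.000347 in limma), on all 3 scales.

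Vinculin, which links talin to actin, is encoded by VCL (ENSG00000035403, chr10:73995193-74121363, plus strand). It fell from 144, 156 and 143 TPM to 91.5, 82.99 and 108 TPM (log2 fold change -0.65, standard error 0.09, adjusted p = 0.000207 in limma), with no overlap and on all 3 scales. FERMT2, the integrin activator kindlin-2, fell from 56.04, 58.4 and 55.99 TPM to 31.4, 29.9 and 37.99 TPM (log2 fold change -0.77, standard error 0.09, adjusted p = 7.53e-05 in limma). PTK2, which encodes focal adhesion kinase, was measured at 30.5, 30.04 and 30.3 TPM in the control group and 19.8, 18.8 and 22.3 TPM in the model group. Its control libraries lay close together, and all model libraries were below them (log2 fold change -0.56, standard error 0.09, adjusted p = 0.000422 in limma). PARVA, a parvin that binds the integrin-linked kinase, fell from 40.6, 42.6 and 40.3 TPM to 28.4, 25.3 and 30.4 TPM (log2 fold change -0.54). FERMT2, PTK2 and PARVA held on all 3 scales. The related PARVB overlapped between the groups at 51.8, 46.6 and 46.6 TPM in the control group and 47.01, 52.6 and 54.4 TPM in the model group, with no call (adjusted p = 0.347 in limma), and was called higher after centring (adjusted p = 0.00637).

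The other proteins of focal adhesions and cell junctions were taken from a list of 57 genes, 29 of which are in the table and 28 of which were tested. In the model group 25 were lower and 1 was higher, beside 48.7% and 28.2% of all genes tested. After quantile normalization 22 were lower and 2 higher, JUP and TES, beside 30.4% and 37.8%. The lowest log2 fold change was that of ENAH, an actin polymerization factor of the Ena/VASP family, which fell from 32.4, 41.2 and 28.8 TPM to 15.1, 11.2 and 18.1 TPM (log2 fold change -1.16, standard error 0.17, adjusted p = 0.000344 in limma). The only rise on the TPM values was that of JUP, the plakoglobin of desmosomes and adherens junctions, from 15.5, 11.6 and 14.2 TPM to 20.8, 21.6 and 21.2 TPM (log2 fold change 0.60, standard error 0.11, adjusted p = 0.00107 in limma). Both held on all 3 scales. The other 28 genes of that list have no values among the listed genes and were not analysed here. The counts therefore describe only partners that were listed for differing between the groups. As the list of partners was made with earlier results of these data known, their contrast with all genes tested is no independent evidence.

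ITGB1 and VCL are abundant partners in the same adhesions and both fell, and the bases before their start sites are shown. They were picked from the members that hold the motif described next, so its presence in them is no finding. The windows come from RefSeq (GRCh38.p14) and matched 66 of the 84 members. They were searched on both strands, over 250 bases before the start, for GGAATG, the core motif of the TEAD transcription factors, whose reverse complement is CATTCC. The motif stood before 10 of the 66 members (15.2%) and before 14.3% of all 27305 genes with a window, so it was about as frequent in the members as elsewhere. PLXNB3, which rose, and EPHA2, which was not called, are shown beside ITGB1 and VCL because they hold it too. The other members with the motif, GJA3, ICAM3, ITGA5, PCDHGA1, PCDHGA11 and PLXNB1, are not shown. Only bases outside annotated exons are printed, 5′ to 3′ on the strand of the gene, and capitals mark the motif. A match is a string of letters and not a measured binding site. For ITGB1 and VCL the RefSeq start lies within the longer GENCODE span, so their windows are intronic to longer annotated transcripts, and for PLXNB3 and EPHA2 the printed bases end where the GENCODE gene begins.
ITGB1 (chr10:32958233-32958480, minus strand): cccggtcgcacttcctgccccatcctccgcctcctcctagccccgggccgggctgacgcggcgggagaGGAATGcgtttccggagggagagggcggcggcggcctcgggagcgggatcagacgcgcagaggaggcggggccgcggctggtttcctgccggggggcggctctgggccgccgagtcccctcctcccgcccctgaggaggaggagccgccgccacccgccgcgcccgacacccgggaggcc
VCL (chr10:73997866-73998113, plus strand): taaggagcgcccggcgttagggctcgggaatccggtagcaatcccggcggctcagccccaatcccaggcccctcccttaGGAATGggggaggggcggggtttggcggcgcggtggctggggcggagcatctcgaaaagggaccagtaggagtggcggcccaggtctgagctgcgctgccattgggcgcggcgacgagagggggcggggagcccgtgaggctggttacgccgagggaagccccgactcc
PLXNB3 (chrX:153763999-153764195, plus strand): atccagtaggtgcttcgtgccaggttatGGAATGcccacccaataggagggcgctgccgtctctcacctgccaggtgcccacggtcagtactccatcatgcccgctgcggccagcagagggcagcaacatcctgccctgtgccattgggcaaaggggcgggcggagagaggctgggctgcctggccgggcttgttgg
EPHA2 (chr1:16156088-16156319, minus strand): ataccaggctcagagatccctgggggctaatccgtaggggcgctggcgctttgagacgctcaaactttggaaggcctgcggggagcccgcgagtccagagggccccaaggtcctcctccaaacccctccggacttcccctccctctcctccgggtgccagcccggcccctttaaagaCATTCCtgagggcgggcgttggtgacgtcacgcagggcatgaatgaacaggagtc
The motif began 182 bases before the start in ITGB1, 171 in VCL and 222 in PLXNB3, in each case on the strand of the gene, and in EPHA2 it lay 73 bases before the start on the opposite strand.

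Cadherins did not move together. CDH11, the cadherin typical of mesenchymal cells, had the highest mean of the 4 and was measured at 55.96, 57.2 and 50.2 TPM in the control group and 28.6, 20.2 and 34.1 TPM in the model group. It fell (log2 fold change -0.98, standard error 0.16, adjusted p = 0.000573 in limma) on all 3 scales. CDH24 rose from 16.2, 13.7 and 12.4 TPM to 19, 21.8 and 23.3 TPM (log2 fold change 0.57, standard error 0.12, adjusted p = 0.00197 in limma), also on all 3 scales. CDH6 and CDH13, the latter attached to the membrane by a lipid anchor, were not called, with log2 fold changes of 0.14 and 0.27 (adjusted p = 0.191 and 0.104 in limma). With 1 library left out at a time these ranged from 0.06 to 0.22 for CDH6 and from 0.16 to 0.43 for CDH13. Both were called higher without control replicate 2 and after centring (adjusted p = 0.00304 and 0.00531), and CDH13 also after quantile normalization (adjusted p = 0.0343 in limma). CDH11 made up 42.4% ± 1.74 of the TPM of the 4 cadherins in the control group and 23.3% ± 3.97 in the model group (SD, n = 3 each), without overlap.

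Of the 6 protocadherins tested all were lower on the TPM values, beside 48.7% of all genes tested, and PCDH18 and PCDHGA11 held on all 3 scales, beside 28.2%. PCDH18, by far the most abundant, fell from 50.4, 44.5 and 50.8 TPM to 21.1, 15.5 and 25.1 TPM (log2 fold change -1.22, standard error 0.15, adjusted p = 0.0001 in limma). Among the 7 coding members from the gamma cluster on chromosome 5, PCDHGA11 had the highest mean, at 14.1, 14 and 13.1 TPM in the control group and 9.30, 7.95 and 9.98 TPM in the model group (log2 fold change -0.55, standard error 0.11, adjusted p = 0.00166 in limma). The gamma genes share their last exons with 21 other genes of the cluster in the annotation, so reads of these exons cannot be assigned to one gene, and their separate values are uncertain.

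In the immunoglobulin family, 5 of 8 genes tested were lower and 1 was higher, beside 48.7% and 28.2% of all genes tested, and 3 were lower and 2 higher after quantile normalization as after centring. ALCAM, a cell adhesion molecule that binds itself and CD6, fell from 89.9, 101 and 87.1 TPM to 45.1, 37.6 and 53.3 TPM (log2 fold change -1.02, standard error 0.12, adjusted p = 5.12e-05 in limma). NECTIN3, a partner of other nectins at adherens junctions, fell from 35.2, 39.8 and 37.2 TPM to 21.9, 16.9 and 23.7 TPM (log2 fold change -0.83, standard error 0.12, adjusted p = 0.000227 in limma). JAM3, a junctional adhesion molecule, was 27.7 ± 0.967 and 16.5 ± 1.81 TPM (SD, n = 3 each) in the control and the model group and also fell (log2 fold change -0.72). All 3 held on all 3 scales. ICAM4 moved the other way, from 5.01, 4.12 and 5.03 TPM to 9.75, 10.6 and 7.56 TPM, the largest rise among the members tested (log2 fold change 0.84, standard error 0.14, adjusted p = 0.000562 in limma), on all 3 scales. VCAM1, the ligand of the integrin with ITGA4, had values of 5.94, 4.5 and 6.49 TPM in the control group and 3.78, 3.12 and 4.19 TPM in the model group (log2 fold change -0.49, standard error 0.15, adjusted p = 0.0125 in limma). Its call was lost after quantile normalization (adjusted p = 0.481), after centring (adjusted p = 0.153) and without control replicate 3 (adjusted p = 0.0503 in limma). JAM2 was called only narrowly, at 3.05, 2.11 and 3.74 TPM in the control group and 1.56, 1.41 and 2.58 TPM in the model group (adjusted p = 0.0437 in limma), with overlapping groups. That call was lost on both other scales and without control replicate 1 or 3 or model replicate 1 or 2, with adjusted p of 0.1 to 0.152 in these 4 fits. ICAM3, a ligand of leukocyte integrins, was measured at 5.89, 5.77 and 8.56 TPM in the control group and 8.46, 8.68 and 8.87 TPM in the model group and was not called (log2 fold change 0.34, adjusted p = 0.0522 in limma). It was called higher after quantile normalization (adjusted p = 0.0071), after centring (adjusted p = 0.00711) and without control replicate 3 (adjusted p = 0.00708 in limma).

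Glypicans carry heparan sulfate chains on a lipid anchor. GPC1 was the third most abundant member, at 185, 187 and 181 TPM in the control group and 196, 197 and 198 TPM in the model group. The model libraries lay just above the control libraries, and the log2 fold change was 0.10 with no call (adjusted p = 0.111 in limma), which centring turned into a call of higher (adjusted p = 0.00231). GPC6 fell from 5.48, 5.53 and 6.56 TPM to 2.65, 1.85 and 2.66 TPM (log2 fold change -1.02, standard error 0.14, adjusted p = 0.000164 in limma), on all 3 scales. GPC2 overlapped between the groups, with values from 0.57 to 2.02 TPM, and was called lower only without model replicate 3 (log2 fold change -0.60 against -0.39). Without model replicate 2 it was -0.21.

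Among junction genes, GJA1, which encodes connexin 43, the main gap junction protein of fibroblasts, was measured at 118, 117 and 117 TPM in the control group and 70.5, 60.4 and 80.5 TPM in the model group. The control libraries lay close together and all model libraries were lower (log2 fold change -0.74, standard error 0.09, adjusted p = 9.69e-05 in limma), on all 3 scales. DSP, the desmosome linker desmoplakin, rose from 3.82, 4.70 and 3.65 TPM to 6.69, 5.27 and 7.47 TPM (log2 fold change 0.56, standard error 0.15, adjusted p = 0.006 in limma), on all 3 scales. CLDN4, an epithelial claudin, had values of 4.60, 5.34 and 4.25 TPM in the control group and 2.81, 1.92 and 3.72 TPM in the model group (log2 fold change -0.61), a call that was lost after quantile normalization (adjusted p = 0.178 in limma). GJC1 and DSG2 were lower on the TPM values only, with log2 fold changes of -0.44 and -0.36, and the call of DSG2 was lost in every fit without 1 library but that without model replicate 3 (adjusted p = 0.06 to 0.155 in limma). GJA3 and CLDN15 were not called on the TPM values and were called higher after quantile normalization (adjusted p = 0.00546 and 0.00427) and after centring.

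Semaphorins of class 3 are secreted and act through neuropilins, which bind them, and plexins, which pass the signal on. SEMA3A was measured at 20.5, 22.96 and 20.1 TPM in the control group and 9.03, 9.20 and 12.2 TPM in the model group, with no overlap, and fell (log2 fold change -1.001, standard error 0.13, adjusted p = 9.69e-05 in limma). SEMA3C fell from 13.9, 18.9 and 15.3 TPM to 7.83, 6.59 and 8.83 TPM (log2 fold change -0.96, standard error 0.14, adjusted p = 0.000253 in limma). Their receptor genes were lower as well. NRP2 was measured at 13.8, 14.03 and 14 TPM in the control group and 7.61, 6.21 and 8.70 TPM in the model group and fell (log2 fold change -0.82, standard error 0.13, adjusted p = 0.000314 in limma). NRP1 fell less, from 32.1, 37.1 and 31.2 TPM to 26.6, 22.8 and 29.1 TPM (log2 fold change -0.35, standard error 0.11, adjusted p = 0.0136 in limma), and its call was lost after centring (adjusted p = 0.326) and without control replicate 2 (adjusted p = 0.0577 in limma). The ratio of NRP1 to NRP2 within a library was 2.40 ± 0.218 in the control group and 3.51 ± 0.166 in the model group (SD, n = 3 each), without overlap.

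The plexins that pair with neuropilins were lower in part. PLXNA1 fell from 24.8, 22.98 and 21.7 TPM to 12.7, 12.97 and 16.7 TPM (log2 fold change -0.68, standard error 0.12, adjusted p = 0.000642 in limma), and PLXND1 from 39.3, 42.04 and 38.1 TPM to 25.5, 27.6 and 31.8 TPM (log2 fold change -0.48, standard error 0.10, adjusted p = 0.00132 in limma). SEMA3A, SEMA3C, NRP2, PLXNA1 and PLXND1 held on all 3 scales. PLXNA2, near the filter at 0.89, 0.92 and 0.70 TPM in the control group and 1.37, 1.25 and 1.57 TPM in the model group, was higher (log2 fold change 0.38, standard error 0.13, adjusted p = 0.0205 in limma). Its call was lost without control replicate 3, model replicate 1 or model replicate 3 (adjusted p = 0.0734, 0.0513 and 0.0635 in limma).

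B-type plexins, which are also receptors of semaphorins, were higher. PLXNB2, the fourth member by mean level, was measured at 149, 144 and 149 TPM in the control group and 188, 194 and 208 TPM in the model group. All model libraries exceeded all control libraries, and PLXNB2 rose (log2 fold change 0.41, standard error 0.06, adjusted p = 0.000197 in limma). PLXNB1 rose from 14.4, 11.1 and 14.2 TPM to 18.9, 16.7 and 21.98 TPM (log2 fold change 0.51, standard error 0.13, adjusted p = 0.00606 in limma). PLXNB3 was higher, at 20.9, 21.1 and 24.1 TPM in the control group and 26.3, 25.6 and 34.8 TPM in the model group (log2 fold change 0.37, standard error 0.12, adjusted p = 0.0188 in limma). The call of PLXNB3 was lost without control replicate 1 or 2 (adjusted p = 0.061 and 0.0561 in limma), and without model replicate 3 its log2 fold change was 0.23. All 3 held on all 3 scales. The B-type genes made up 72.76 to 75.55% of the TPM of the 6 listed plexins in control libraries and 84.09 to 85.50% in model libraries, so the shift does not depend on the scaling.

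Among the remaining semaphorins, only SEMA6A held on all 3 scales, at 2.47, 1.96 and 1.79 TPM in the control group and 0.97, 0.88 and 1.03 TPM in the model group (log2 fold change -0.64, standard error 0.13, adjusted p = 0.0018 in limma). SEMA4B, SEMA4C and SEMA5A were lower on the TPM values, with log2 fold changes of -0.43, -0.39 and -0.40, and close to 0 after quantile normalization, at -0.06, -0.05 and -0.02. The call of SEMA5A was also lost without control replicate 1 or 2 or model replicate 1 or 2 (adjusted p = 0.0644, 0.0517, 0.0543 and 0.0622 in limma). SEMA7A, the most abundant semaphorin and a membrane-anchored one, overlapped between the groups at 54.7, 63.8 and 50.4 TPM in the control group and 62.7, 57.9 and 67.99 TPM in the model group, with no call (adjusted p = 0.145 in limma). It was called higher after centring (adjusted p = 0.00179) and without control replicate 2.

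**Figure D3:**
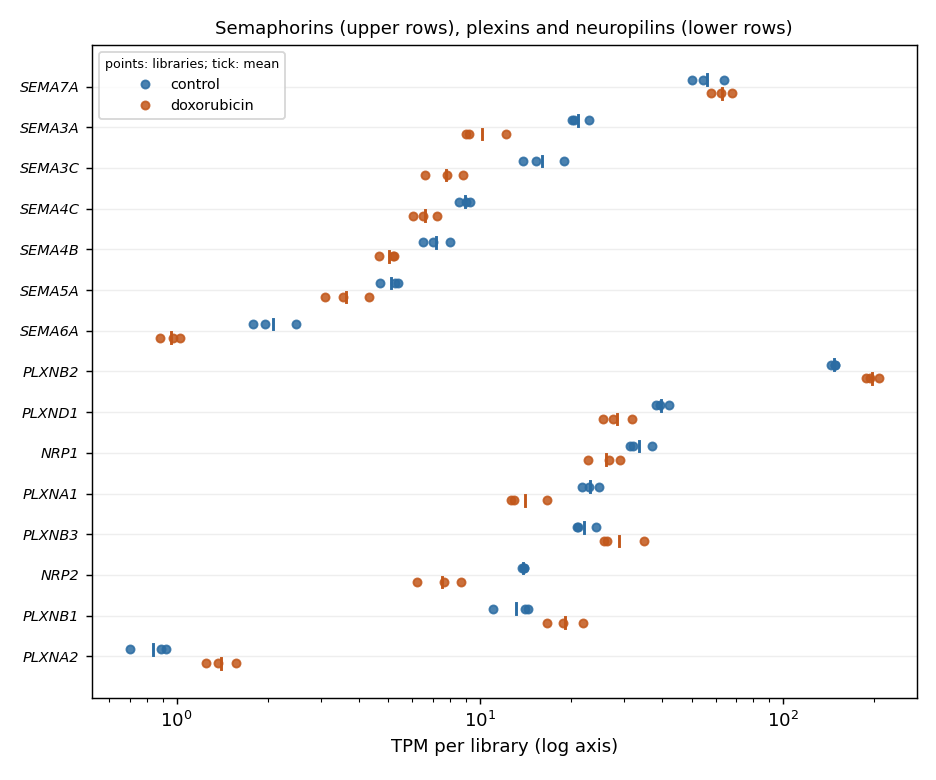
TPM per library (log axis) of the 7 semaphorin genes and the 8 plexin and neuropilin genes tested, each set ordered by its control mean, with group means as ticks. SEMA3A, SEMA3C, NRP2, PLXNA1 and PLXND1 lie to the left after doxorubicin and PLXNB1, PLXNB2 and PLXNB3 to the right.

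**Figure D4:**
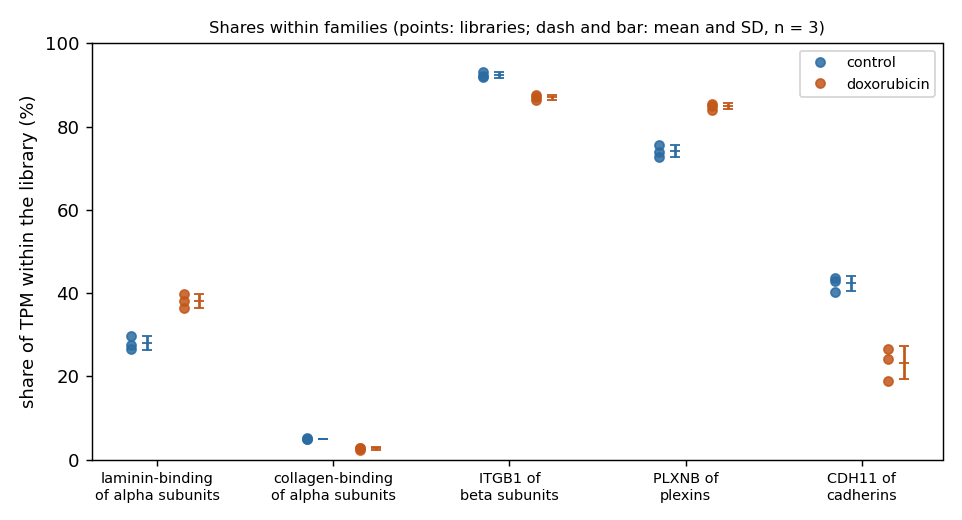
Share of TPM within each library (%) of laminin-binding and collagen-binding genes among the 9 listed alpha subunits, of ITGB1 among 3 beta subunits, of B-type plexins among 6 plexins and of CDH11 among 4 cadherins. Points are libraries, dashes and bars are means and SDs (n = 3). The groups do not overlap in any of the 5 shares.

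SLIT2, a secreted repellent, and its receptor ROBO1 were both lower. SLIT2 fell from 6.16, 5.33 and 4.27 TPM to 2.27, 1.59 and 2.67 TPM (log2 fold change -0.98, standard error 0.17, adjusted p = 0.000546 in limma). ROBO1 was measured at 24.2, 27.3 and 17.8 TPM in the control group and 9.67, 8.60 and 17.5 TPM in the model group, with control replicate 3 and model replicate 3 nearly level (log2 fold change -0.94, standard error 0.25, adjusted p = 0.0081 in limma). Both held on all 3 scales. ROBO3 was not called on the TPM values, at 12.5, 11.2 and 13.7 TPM in the control group and 14.2, 12.8 and 14.4 TPM in the model group (adjusted p = 0.246 in limma), and was called higher after quantile normalization (adjusted p = 0.0113) and after centring (adjusted p = 0.00751).

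EPH receptors bind ephrins on neighbouring cells. EPHA2, the most abundant, overlapped between the groups at 36.5, 41.4 and 38.02 TPM in the control group and 38.8, 35.5 and 45.3 TPM in the model group. Its log2 fold change was 0.04 (adjusted p = 0.713 in limma), turned to -0.055 without model replicate 3 and was called higher after centring (adjusted p = 0.00643). EPHA4 rose from 9.88, 10.6 and 10.4 TPM to 14.7, 12.8 and 13.4 TPM (log2 fold change 0.38, standard error 0.10, adjusted p = 0.00789 in limma), on all 3 scales. EPHB4 was lower, at 17.03, 19 and 19.3 TPM in the control group and 14.5, 11.6 and 12.98 TPM in the model group (log2 fold change -0.48, standard error 0.11, adjusted p = 0.00321 in limma), but not after quantile normalization (adjusted p = 0.0557) or centring (adjusted p = 0.0716). The ligand EFNB1 rose from 26.4, 24.9 and 26.1 TPM to 34.9, 33.9 and 33.2 TPM (log2 fold change 0.39, standard error 0.08, adjusted p = 0.00145 in limma), on all 3 scales. EFNA5 was lower on the TPM values (log2 fold change -0.46, standard error 0.17, adjusted p = 0.0271 in limma), a call lost on both other scales (adjusted p = 0.626 and 0.291) and without control replicate 1, control replicate 3 or model replicate 2 (adjusted p = 0.112, 0.0817 and 0.0811 in limma).

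The 13 members under the filter had values from 0 to 1.45 TPM and were not tested. They were ITGA8, PARVG, PCDHGA1, PCDHGA5, PCDHGB8P, NECTIN4, GJC3, SEMA3D, EPHA5, EFNA1, EFNA3, EFNB3 and SLIT1. The groups did not overlap in 11 of them, 5 higher and 6 lower in the model group, beside 78.1% of the 778 listed genes under the filter, 47.6% higher and 30.6% lower. ITGA8 was measured at 1.15, 0.71 and 0.96 TPM in the control group and 0.38, 0.38 and 0.27 TPM in the model group. GJC3 is listed at 0 in the 3 control libraries and at 0.17, 0.38 and 0.11 TPM in the model libraries.

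The members are long genes. By GENCODE spans on GRCh38, the median over the 71 members tested was 90837 bp against 32497 bp over the 5700 genes tested with a span. It was 105216 bp for the 46 lower members and 31476 bp for the 11 higher ones. Of the 31 members that span at least 100 kb, 24 were lower and 2 higher. Of the 40 shorter ones, 22 were lower and 9 higher. Among all genes tested, of any span, 48.7% were lower and 28.2% higher, and their shares by span were not counted. Between span and log2 fold change, Spearman's rho was -0.480 over the 71 members and -0.441 over all genes tested with a span. It is a description across genes that share the same 6 libraries, and the part of span in the members' values was not tested. Short genes that fell on all 3 scales included PCDH18 and GJA1, which span 13577 and 14151 bp, and the long genes called higher were PLXNA2 and EPHA4, which span 222079 and 156176 bp. ITGA3 and ITGA7 span 34514 and 31476 bp, and ITGA1 and ITGA4 span 171315 and 78986 bp.

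**Figure D5:**
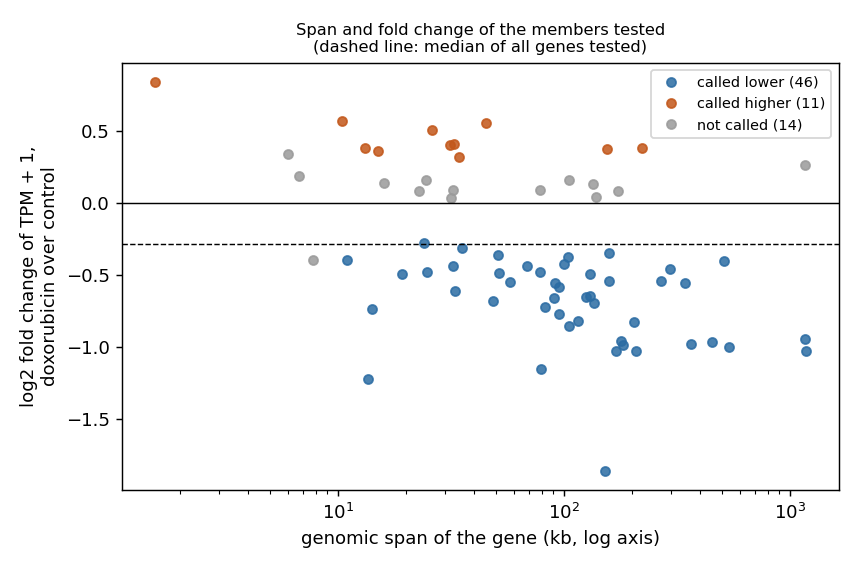
Genomic span of each of the 71 members tested (kb, log axis) against its log2 fold change of TPM + 1 (model over control group), with the median of all genes tested as a dashed line. The 46 genes called lower have a median span of 105216 bp and the 11 called higher one of 31476 bp.

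The listed genes were compared with marker lists of cell types. Only genes that differed between the groups are listed, so a marker can be absent because it did not change. The lists therefore cannot check the labelled cell type. Of 12 fibroblast markers 6 are listed, with a summed level of 10315 to 10640 TPM in control libraries and 9424 to 11501 TPM in model libraries. COL1A1, COL1A2, COL3A1, PDGFRA and PDGFRB were called lower on the TPM values in limma, with log2 fold changes of -0.55, -0.38, -1.48, -0.91 and -0.58, while FN1, the largest part of the sum, was called higher, with a log2 fold change of 0.45. Of 6 epithelial markers 4 are listed (139.7 to 156 and 286 to 311 TPM in sum, mostly KRT19), of 5 endothelial markers 1 (TEK, 8.45 to 9.83 and 2.29 to 3.27 TPM) and of 5 muscle markers 3 (529 to 583 and 184 to 234 TPM, mostly ACTG2). The epithelial list shares CLDN4 with the members. CLDN4 was lower although the epithelial sum was higher. MYH11, at 0.03 to 0.08 TPM in control and 0.16 to 0.45 TPM in model libraries, was higher although the muscle sum was lower. Of 6 immune markers 2 are listed, PTPRC at 0.01 to 0.62 TPM and CD68 at 44.94 to 48.96 TPM in control and 87.34 to 93.42 TPM in model libraries, and none of 4 neural markers is listed. No listed marker was at 0 in a library. The summed fibroblast level, KRT8 and PTPRC overlapped between the groups. The summed epithelial, endothelial, immune and muscle levels did not, and their part in the members' values was not tested.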

How the data were processed

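RNA of WI-38 cells was sequenced with reads of both ends. Per the labels, the submitters' processing notes name CASAVA, HISAT2, StringTie, RSEM, DESeq2 and edgeR without versions or roles, and the mouse build GRCm38, although the gene identifiers are human. The deposited table gives a value per gene and library in a unit it does not name. The values were taken to be TPM made by the authors, since RSEM is named and the listed genes sum to 54.3 to 60.0% of the total that TPM has in a library. FPKM would differ from TPM by 1 constant factor per library. The table also holds the authors' group means, fold changes, p-values and adjusted p-values, which were not used, and lists only genes with a fold change over 1.2 either way and a p-value under 0.05. Yet 14 members tested were not called here, and some differ by less than 1.2-fold in these values. ITGB5 averaged 82.9 and 85.9 TPM and GPC1 184 and 197 TPM in the control and the model group. The authors' fold changes were therefore not made from these values as they stand, and the mismatch was not examined further.

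Values were fitted with limma 3.58.1 (eBayes, trend and robust, R 4.3.3) as log2(TPM + 1), for genes averaging 1 TPM or more, over the 3 control and 3 model libraries, without covariates. The design foresaw counts or normalized values, and the latter applied. In simulated data made from these 5721 genes, 96 of 100 genes changed by 1 and 58 of 100 changed by 0.5 on the log2 scale were recovered, with 8 false calls. The changed genes were drawn only from those with a control mean over 3 on the log2(TPM + 1) scale. All other genes were left unchanged, whereas 76.9% of the genes were called in the data. Recovery was therefore not examined for members at low TPM or for so broad a change. The libraries had Pearson's r of 0.992 to 0.995 within a group and 0.935 to 0.958 between groups across genes, and at most 0.52% of values were identical between any pair.

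The members and lists were chosen with earlier results of these data known. Genes named are the 5 largest rises and falls among members called without overlap, the 5 highest means, the highest and the most changed member of each role group, and receptors and ligands that pair with these. ICAM3, JAM2, PARVA, PARVB, PTK2, FERMT2, VCL, CDH6, CDH13, CLDN4, CLDN15, GJA3, GJC1, DSG2, GPC2, JAM3, NECTIN3, VCAM1, PCDHGA11 and the members under the filter were added after their values were seen. Ensembl identifiers linked all 84 members to positions, spans and exons of GENCODE release 29 (GRCh38). Exons of 26 members overlap those of another gene on the opposite strand, and exons of 16 members on the same strand. Strand use is not given in the sources used here, so reads of opposite-strand pairs cannot be told apart. Examples are VCL and AP3M1, TLN1 and CREB3, ITGA7 and METTL7B, JAM2 and ATP5PF, and ICAM4 and AC011511.5. On the same strand, ITGA1 shares exonic bases with PELO, PLXNB3 with SRPK3 and CDH11 with AC010533.1. Alternatives were a pseudocount of 0.1, no filter or a mean of at least 5 TPM, quantile normalization, centring, the replicate number as a block, plain eBayes, the thresholds of the study, and fits without each library. Python 3.11.15, pandas 2.3.3, NumPy 2.4.6 and SciPy 1.17.1 were used.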

Additional observations from a re-analysis of the deposited data

How the results depend on the processing

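The scaling of the libraries moved the counts most. Of the members, 46 were called lower on unscaled TPM, 30 with quantile normalization and 30 with centring on the median of all genes tested, and members called higher were 11, 16 and 23. Their median log2 fold change was -0.46, -0.19 and -0.20 in the same order. Adhesion partners called higher were 1 with unscaled TPM and 2 in each of 3 fits, those without a filter, with quantile normalization and with centring. The cause of these shifts was not tested beyond the shift of the median of all genes, from -0.28 to -0.01 and -0.02. ITGB5 had a log2 fold change of -0.004 with quantile normalization and -0.051 to 0.120 with each library left out in turn, EPHA2 -0.055 to 0.117 and ITGA6 -0.042 to 0.296, and none of the 3 was called on unscaled TPM. With each library left out in turn, members called lower were 40 to 47, members called higher 10 to 13, adhesion partners called lower 24 to 26 and called higher 1 in each fit, and the median was -0.504 to -0.375. A fit that leaves a group with 2 libraries keeps a spread pooled over genes. Same-numbered libraries correlated at -0.063, -0.193 and -0.230 in their deviations from the group means, and libraries of unlike numbers at -0.005 to 0.19. Deviations within groups of 3 constrain one another, so these values cannot show whether same-numbered libraries were handled together. With the replicate block 45 members were called lower and 11 higher, the call lost being that of DSG2 (adjusted p = 0.0719 in limma). TPM keeps no depth, so the counting error of low members is unknown.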
